A study of Rattus norvegicus with 6 samples.

Results

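The 7 genes described here encode proteins of the smooth muscle contractile apparatus or are used as markers of it: Acta2, Tagln, Myh11, Cnn1, Des, Lmod1 and Mustn1. They were chosen by name, out of 15037 genes with a symbol on the array, and each has 1 probeset. The choice was made with earlier results of these data known. Affymetrix arrays were run on sorted blood endothelial cells of abdominal skin, from 3 Il33 knockout rats (28, 27 and 52) and 3 wildtype rats (34, 45 and 37), all Sprague-Dawley and with no treatment named. Animals 52 and 37 were male and the other animals female, so that each genotype had 2 females and 1 male. The labels used here state neither age nor how the allele was made, and every animal gave 1 array. Collagenase-digested skin was first depleted of leukocytes through CD45, then of lymphatic cells through Lyve-1, and cells bearing CD31 were kept. CD31 is an endothelial surface protein, and no marker of smooth muscle was named in the sort.

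Smooth muscle cells wrap arteries, arterioles and larger veins, and set vessel calibre by shortening. Their force comes from myosin filaments that pull on actin filaments, after phosphorylation of the regulatory myosin light chain by its calcium-dependent kinase. Many of their genes are switched on by serum response factor (Srf) with its cofactor myocardin, through a promoter motif named the CArG box. Several of these genes are not particular to smooth muscle: Acta2 is also made by pericytes, myofibroblasts and myoepithelium, and Des by pericytes and skeletal muscle. In sorted bulk RNA, fewer cells of a type and less RNA per cell cannot be told apart.

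RefSeq promoter sequence was at hand for 4 of the 7 genes (Acta2, Cnn1, Des and Mustn1). The 250 bases upstream of the start of Acta2, Des and Mustn1 are shown because the levels of these genes followed nearly the same arrays. They lie in build GRCr8 at chr1:241172504-241172753 (minus strand), chr9:84299376-84299625 (plus strand) and chr16:6079105-6079354 (plus strand), and are written along the strand of the gene. Capitals mark a CArG box with a single G or C among its inner letters, and the MCAT element CATTCC or its reverse complement GGAATG, which transcription factors of the Tead family bind.
Acta2: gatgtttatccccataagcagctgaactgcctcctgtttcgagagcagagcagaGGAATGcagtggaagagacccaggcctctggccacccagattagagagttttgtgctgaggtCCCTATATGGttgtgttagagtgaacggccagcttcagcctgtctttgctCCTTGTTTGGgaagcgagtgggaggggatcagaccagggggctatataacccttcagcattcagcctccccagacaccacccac
Des: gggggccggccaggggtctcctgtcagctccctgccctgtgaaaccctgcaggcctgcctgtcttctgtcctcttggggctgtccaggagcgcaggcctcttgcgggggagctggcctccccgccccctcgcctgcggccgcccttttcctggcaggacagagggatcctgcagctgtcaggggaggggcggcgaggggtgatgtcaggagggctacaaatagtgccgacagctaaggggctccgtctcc
Mustn1: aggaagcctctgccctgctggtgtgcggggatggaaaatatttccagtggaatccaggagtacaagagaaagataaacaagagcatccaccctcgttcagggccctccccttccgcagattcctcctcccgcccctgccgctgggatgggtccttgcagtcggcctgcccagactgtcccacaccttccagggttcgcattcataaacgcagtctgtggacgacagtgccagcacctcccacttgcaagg

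A CArG box was searched as CC and GG separated by 6 letters that are all A or T, a pattern that reads alike on both strands. None of the 4 windows held it, against 1.5% of 33469 rat promoter windows of the same length, while the window of Srf held 2. The Acta2 window held 2 boxes with a single G or C inside, CCCTATATGG from 134 to 125 and CCTTGTTTGG from 84 to 75 bases upstream of the start. Of all windows 6.84% held at least 1 box of this relaxed form and 0.43% held 2 or more. The Acta2 window also held 1 MCAT element, from 196 to 191 bases upstream, as 12.1% of all windows did, and no match overlapped another. The windows of Cnn1, Des and Mustn1 held neither the relaxed box nor the MCAT element. These matches describe the letters only.

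Il33 served as the check of the labels. Its log2 expression was 8.07, 8.37 and 9.82 in knockout 28, 27 and 52, against 13.86, 16.32 and 16.60 in wildtype 34, 45 and 37 (limma, difference -6.84, adjusted p = 0.0436). The groups did not overlap, but the adjusted p was 0.00191 to 0.651 over 17 fits with other settings, and the call was lost without knockout 28, 27 or 52 or wildtype 45 or 37. Array medians lay between 4.63 and 4.78. The mean of 8 bacterial and phage control transcripts, which carry no rat RNA, divided the arrays. It was 9.33, 8.82 and 8.91 in knockout 27, knockout 52 and wildtype 37 (the low-control arrays) and 10.26, 10.42 and 10.12 in knockout 28, wildtype 34 and wildtype 45 (the high-control arrays). Both males are low-control arrays, so sex and control signal overlap. Blood endothelial markers gave high signal, with Plvap at 19.79 in knockout and 19.77 in wildtype arrays, and all 17 listed endothelial genes on the array lay above the background probesets in every array.

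Transcripts of 6 of the 7 contractile genes were above the median of the background probesets in every array of this CD31-selected material. This is a low bar, as that median was 4.55 to 4.73 and the median of all probesets 4.63 to 4.78. The share of all genes above it was not counted. The lowest values of Myh11 (5.31) and Lmod1 (5.59) were not far above it. No contractile gene was called between knockout and wildtype: 0 of 7 passed limma at an adjusted p of 0.05, 0 of 7 had an unadjusted p under 0.05, and the groups overlapped for all 7. Of all 11584 genes tested, 0.00863% were called, 1.98% had an unadjusted p under 0.05 and 6.25% did not overlap between genotypes. Means were higher in the knockout for 4 members and lower for 3, where 54% of all genes were higher. The median difference was 0.18 over the members and 0.03 over all genes, on the log2 scale. Wildtype 37 was the highest array for 5 of the 7 genes and knockout 28 the lowest for 3.

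**Figure D1:**
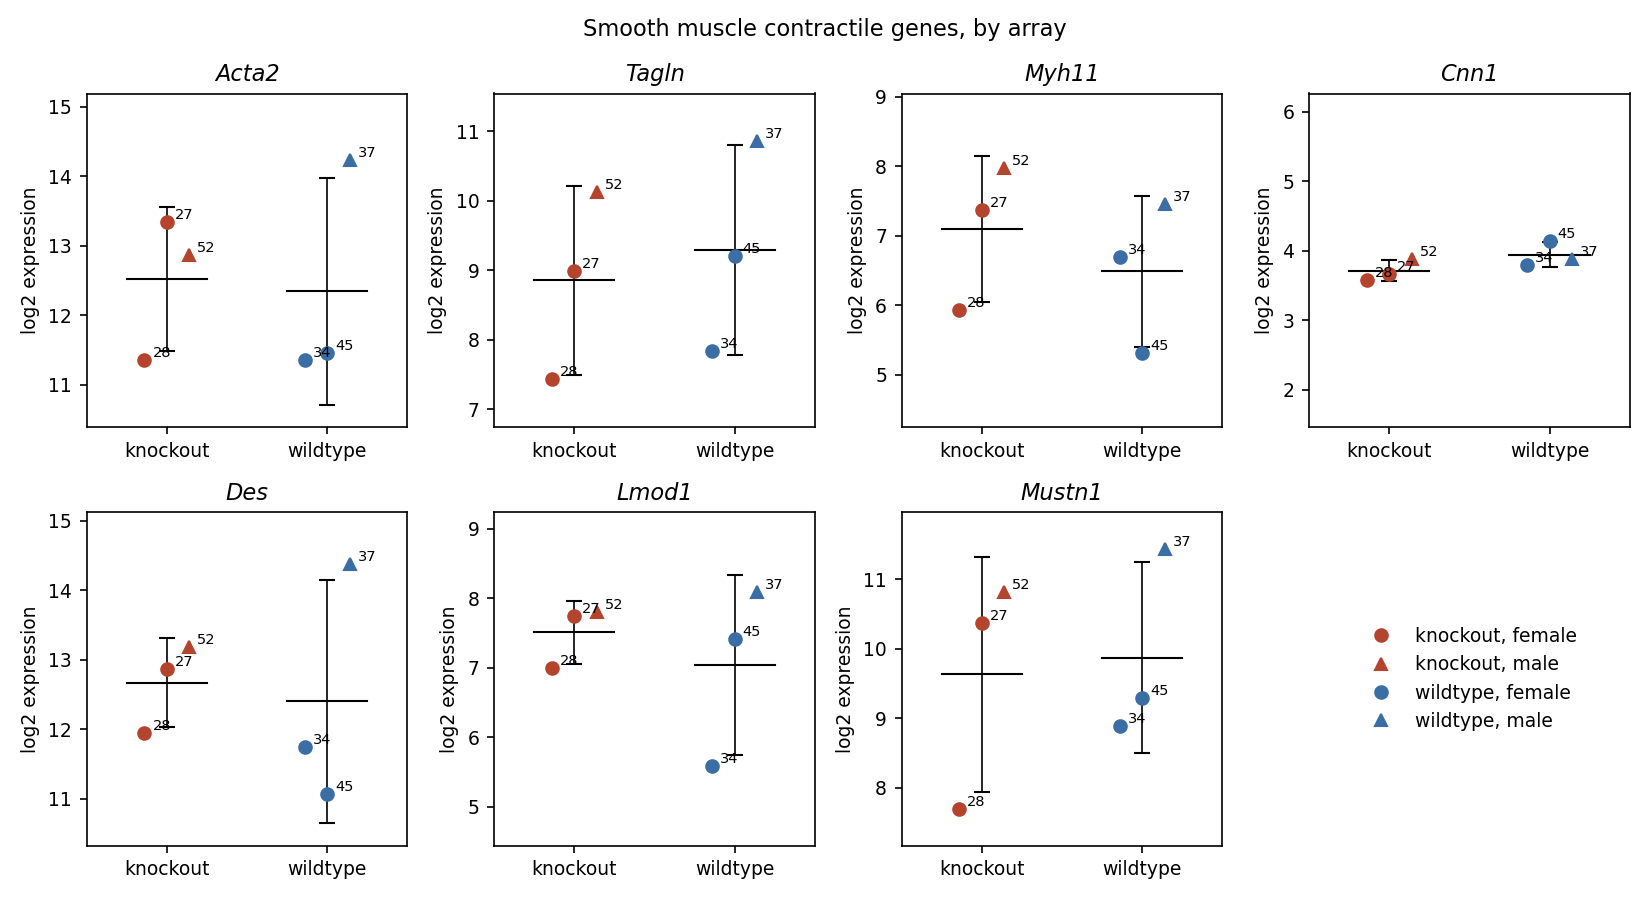
Log2 expression (y axis) of the 7 contractile genes by array, knockout left and wildtype right. Symbols are animals, with circles for females and triangles for males; the horizontal line is the group mean and the bar 1 SD (n = 3 each), and every panel spans the same number of log2 units. Wildtype 37 was the highest array for 5 of the 7 genes, and the groups overlap in every panel.

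Acta2, the alpha-actin of smooth muscle thin filaments, had log2 expression of 11.35, 13.34 and 12.87 in knockout 28, 27 and 52, against 11.35, 11.45 and 14.23 in wildtype 34, 45 and 37. The 3 low arrays were within 0.10 of each other and comprised 1 knockout and 2 wildtype animals, while the gap to the other arrays was 1.42. The means were 12.52 ± 1.04 in knockout and 12.34 ± 1.63 in wildtype arrays (SD, n = 3 each), a difference of 0.18 (95% interval -1.58 to 1.93; limma adjusted p = 0.999). With control signal as a block the difference was -0.59, which is the opposite direction, and it was -0.23 without knockout 27, -0.32 without wildtype 34 and -0.27 without wildtype 45. Coding sequences of the actins are nearly alike, and the labels do not state whether the probes separate them. Actg2, the gamma-actin of smooth muscle, had means of 5.85 ± 0.51 in knockout and 5.66 ± 0.18 in wildtype arrays, and Acta1, the actin of skeletal muscle, 4.55 ± 0.25 and 4.26 ± 0.20; neither gene showed the gap seen for Acta2.

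Myh11, the heavy chain of smooth muscle myosin and the motor of the thick filament, had log2 expression of 5.93, 7.37 and 7.98 in knockout 28, 27 and 52, against 6.69, 5.31 and 7.46 in wildtype 34, 45 and 37. Knockout 52 was the highest array and wildtype 45 the lowest, and the middle values of both groups interleaved. The difference of the means was 0.61 (SE 0.64, 95% interval -0.82 to 2.04; limma adjusted p = 0.999). It was 0.02 without wildtype 45 and 1.19 without knockout 28.

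Tagln, transgelin, an actin-binding protein of the calponin family, had log2 expression of 7.43, 8.99 and 10.13 in knockout 28, 27 and 52, against 7.83, 9.20 and 10.85 in wildtype 34, 45 and 37. In each genotype a female was lowest and the male highest. The means were 8.85 ± 1.36 in knockout and 9.29 ± 1.51 in wildtype arrays (SD, n = 3 each), a difference of -0.44 (95% interval -2.27 to 1.38; limma adjusted p = 0.999). It was 0.27 without knockout 28 and 0.33 without wildtype 37.

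Cnn1, calponin 1, which binds actin and slows the myosin ATPase, stood apart from the other members. Its log2 expression was 3.58, 3.67 and 3.88 in knockout 28, 27 and 52, against 3.80, 4.14 and 3.88 in wildtype 34, 45 and 37. All 6 values were below the median of the background probesets, which was 4.55 to 4.73 per array, so this probeset was not above background in either genotype. The difference of -0.23 (95% interval -0.92 to 0.46; limma adjusted p = 0.999) is between values at background. Cnn3, a calponin of many cell types, was above background in every array, at 13.95 ± 0.62 in knockout and 13.57 ± 0.87 in wildtype arrays.

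Lmod1, leiomodin 1, a nucleator of actin filaments in smooth muscle, had log2 expression of 6.99, 7.74 and 7.80 in knockout 28, 27 and 52, against 5.59, 7.42 and 8.09 in wildtype 34, 45 and 37. Wildtype 34 was the lowest array, and wildtype 37 the highest. The difference was 0.48 (SE 0.59, 95% interval -0.85 to 1.80; limma adjusted p = 0.999), and without wildtype 34 it was -0.25.

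Des, desmin, the intermediate filament that ties contractile bundles together in muscle cells, had log2 expression of 11.95, 12.87 and 13.19 in knockout 28, 27 and 52, against 11.75, 11.07 and 14.38 in wildtype 34, 45 and 37. The wildtype animals held both the 2 lowest values and the highest one, and the knockout animals lay between them. The difference was 0.27 (SE 0.76, 95% interval -1.42 to 1.96; limma adjusted p = 0.999), and with control signal as a block it was -0.41. It was -0.06 without wildtype 34 and -0.40 without wildtype 45.

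Mustn1, a small nuclear protein of muscle and skeletal tissue, had log2 expression of 7.70, 10.38 and 10.82 in knockout 28, 27 and 52, against 8.89, 9.30 and 11.44 in wildtype 34, 45 and 37. It had the widest range of the members, 3.74 from knockout 28 to wildtype 37, and the wildtype values fell on both sides of the knockout mean. The means were 9.63 ± 1.69 in knockout and 9.88 ± 1.37 in wildtype arrays (SD, n = 3 each), a difference of -0.24 (95% interval -2.18 to 1.69; limma adjusted p = 0.999). It was 0.72 without knockout 28 and 0.54 without wildtype 37.

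**Figure D2:**
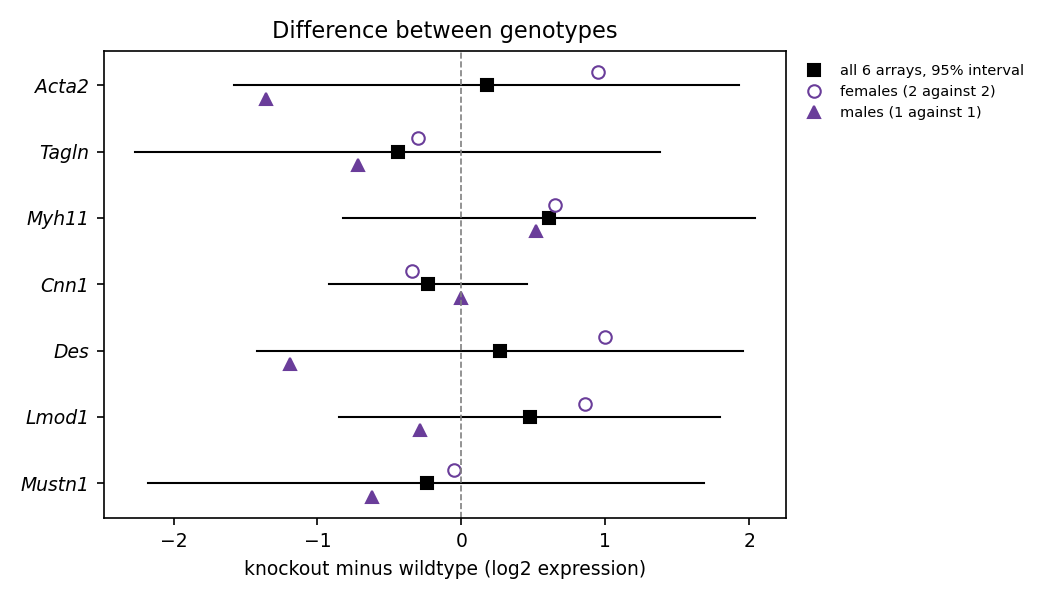
Difference of knockout minus wildtype in log2 expression (x axis) for the 7 genes (y axis). Squares with lines are the limma estimate and its 95% interval over all 6 arrays, open circles the females and triangles the male pair. Every interval includes 0, and for Acta2, Des and Lmod1 the female difference lies above 0 and the male one below it.

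The intervals reached upward to 2.04 for Myh11 and downward to -2.27 for Tagln, so differences of such size are not excluded by 3 arrays a group. The male and female animals did not show the same sign for every gene. For Acta2 the difference was -1.36 in the male pair and 0.95 in the females, for Des -1.19 and 1.0, and for Lmod1 -0.29 and 0.86. For Myh11 it was 0.52 and 0.65, and for Tagln -0.72 and -0.30. The female value of Acta2 rests on knockout 27 (13.34), a low-control array, as the other females lay at 11.35, 11.35 and 11.45. Among the high-control arrays, all female, the Acta2 difference was -0.05. In the limma model with genotype, sex and their interaction 0 of the 7 interactions passed, and 0 of the 11584 genes did. At an unadjusted p under 0.05 there was 1 member, Des, against 1.03% of all genes.

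Male means were above female means for all 7 contractile genes, as for 61.5% of all genes, and no member passed the test. Male means were 13.55 for Acta2, 10.49 for Tagln, 13.78 for Des and 11.13 for Mustn1, against female means of 11.87, 8.36, 11.91 and 9.07. Both males lay above every female for 5 of the 7 genes (Tagln, Myh11, Des, Lmod1 and Mustn1), as for 23.4% of all genes tested. The same number, 5 of 7, had an unadjusted p under 0.05 in limma with genotype and sex, against 18.6% of all genes. The smallest adjusted p of a member was 0.127, for Tagln (male minus female 2.13), and 0 of 7 passed where 0.0259% of all genes did. As both males are low-control arrays, sex and control signal cannot be told apart in the males; knockout 27 is the 1 female among the low-control arrays.

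Acta2, Myh11, Des, Lmod1 and Mustn1 were higher in each of the 3 low-control arrays than in each of the 3 high-control arrays, which makes 5 of 7 members, and 0 were lower in each. Among all genes 17.2% were higher in this way and 7.35% lower. As the members and the lists below were chosen with earlier results known, counts set against these shares are descriptions only. Means in low-control against high-control arrays were 13.48 and 11.38 for Acta2, 13.48 and 11.59 for Des, 10.88 and 8.63 for Mustn1, 7.60 and 5.98 for Myh11, and 7.88 and 6.67 for Lmod1. Tagln, at 9.99 and 8.15, overlapped through a single pair of arrays, wildtype 45 (9.20) and knockout 27 (8.99). Cnn1, at background, was 3.81 and 3.84. The control transcripts are not a treatment, so this is a description of how the arrays fell, and the part of control signal in it was not tested.

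**Figure D3:**
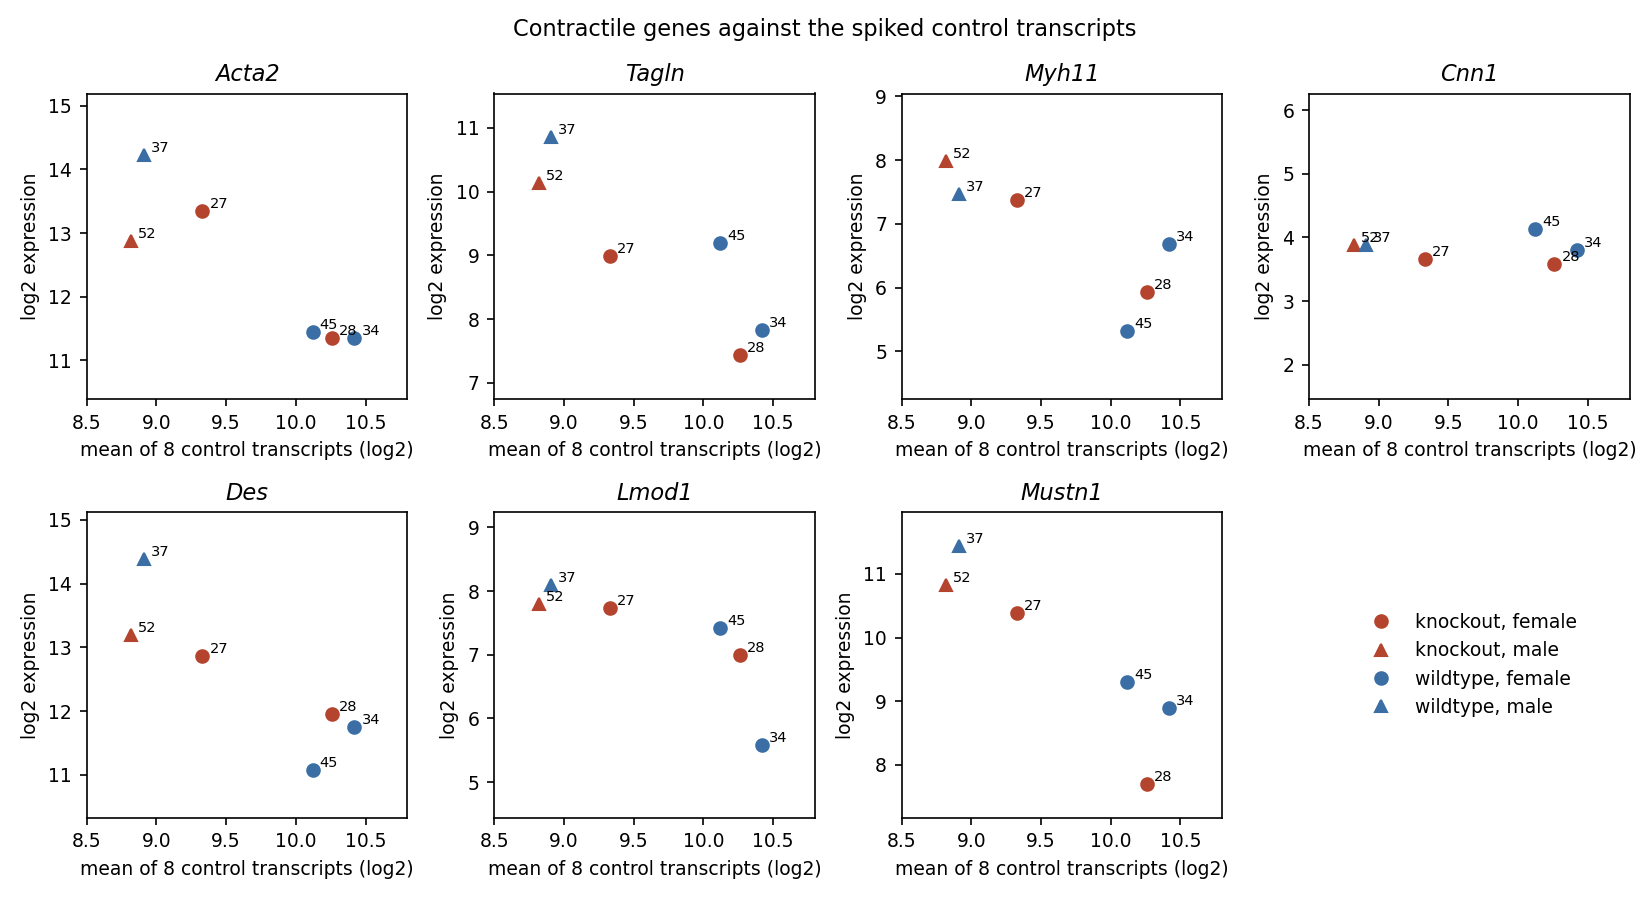
Log2 expression of each gene (y axis) against the mean log2 signal of the 8 control transcripts (x axis); each symbol is an array, labelled with its animal. The 3 arrays with a control mean under 9.5 have the highest values of Acta2, Myh11, Des, Lmod1 and Mustn1, and the points for Cnn1 are flat.

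Within each of these sets of arrays the genotypes were compared again. Among low-control arrays the knockout minus wildtype difference was -1.12 for Acta2, -1.35 for Des, -1.29 for Tagln, -0.84 for Mustn1, -0.32 for Lmod1 and 0.22 for Myh11. Among high-control arrays it was -0.05 for Acta2, 0.54 for Des, -1.09 for Tagln, -1.40 for Mustn1, 0.49 for Lmod1 and -0.07 for Myh11. Tagln and Mustn1 were thus lower in knockout than in wildtype arrays in both sets. Each such value sets 2 arrays against 1, and no test was made within a set. The high-control arrays are all female. The low-control set holds a female and a male knockout against a male wildtype, so genotype and sex overlap there. In the male pair alone the difference was -0.72 for Tagln and -0.62 for Mustn1. Over the females of both sets it was -0.30 for Tagln and -0.05 for Mustn1. The Mustn1 value of the female knockout 27 (10.38) lay above those of both female wildtypes (8.89 and 9.30). Limma over all 6 arrays was also run with control signal as a block and no term for sex. The difference was then -1.19 for Tagln, -1.12 for Mustn1, 0.07 for Myh11 and 0.08 for Lmod1. The limma p was 0.0279 for Tagln and 0.0085 for Mustn1 before adjustment, and 0.999 for both after it. In that fit 2 of 7 members had an unadjusted p under 0.05, against 2.76% of all genes, and 0 of 7 were called, against 0.00863%.

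Co-variation of the members over the 6 arrays was examined for all 21 pairs. The 6 pairs with Acta2 are given no coefficient, because its values formed separate clusters, with a gap wider than the range of either cluster. Over the 10 other pairs without Cnn1 Pearson's r was 0.36 to 0.94 and Spearman's rho 0.60 to 0.94 (n = 6 arrays), and over the 5 pairs with Cnn1 r was -0.24 to 0.50. The closest pair was Tagln with Mustn1, at r = 0.94 (exact permutation p = 0.00556, adjusted p = 0.117) and rho = 0.94 (exact permutation p = 0.0167, adjusted p = 0.117). Without knockout 28 and wildtype 37, the arrays farthest from the median of Tagln, its r was 0.82.

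The next closest pairs were Myh11 with Des at r = 0.82 (exact permutation p = 0.0361, adjusted p = 0.15), with rho = 0.89 (exact permutation p = 0.0333, adjusted p = 0.117), and Des with Mustn1 at r = 0.80 (exact permutation p = 0.05, adjusted p = 0.15), with rho = 0.77 (exact permutation p = 0.103, adjusted p = 0.194). Without the 2 arrays farthest from the median of the first gene their r was 0.63 and 0.89. Tagln with Lmod1 had r = 0.77 (exact permutation p = 0.0472, adjusted p = 0.15), rho = 0.89 (exact permutation p = 0.0333, adjusted p = 0.117) and r = 0.88 without those 2 arrays. Of the 15 pairs 0 passed the two-sided exact test after Benjamini-Hochberg adjustment over 21, and 3 had an unadjusted p under 0.05 for r. With 6 arrays the smallest exact p is 0.00278, which for 1 pair alone becomes 0.0583 over 21 pairs. All members share the 6 RNA samples and their normalization.

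Each set of high-control or low-control arrays holds 3 arrays, too few for a coefficient of its own. After the mean of each set was taken from the values, r over the same 10 pairs was -0.88 (Myh11 with Lmod1) to 0.87 (Tagln with Mustn1), with a median of 0.08, against a median of 0.74 before. Taking out genotype means left r at 0.29 to 0.94. Over all 15 pairs the median r was 0.61, and it was 0.30 after the means of the sexes were taken out and 0.10 after those of the control sets.

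The other genes of the contractile apparatus were read from a list of 40, of which 37 were on the array and 34 were tested. Of these 0 were called in either direction, 23 had a higher mean in the knockout and 11 a lower one, and the median difference was 0.18. Over all genes 54% had a higher mean in the knockout, and the median difference was 0.03. The 3 genes of highest signal were Tagln2, a transgelin of non-muscle cells (15.99 ± 0.09 in knockout and 15.83 ± 0.51 in wildtype arrays), Pgm5, a phosphoglucomutase-like protein of adherens junctions (14.31 ± 1.36 and 14.65 ± 1.44), and Cnn3. The genotypes did not overlap for 2 of the 34, where 6.25% of all genes did not; both are named here after their values were seen. Prkg1, the cyclic GMP-dependent kinase that relaxes smooth muscle, was 6.89 ± 0.49 in knockout and 6.04 ± 0.27 in wildtype arrays. Myl6, a myosin light chain of many cell types, was 13.15 ± 0.05 and 13.37 ± 0.14. Neither passed limma (adjusted p = 0.999 for both), and the unadjusted p of Prkg1 was 0.0426.

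In 13 of 34 the 3 low-control arrays lay above the 3 high-control arrays, against 17.2% of all genes, and in 0 of 34 they lay below. Those with the widest difference, named after their values were seen, were Myl9, the regulatory light chain of smooth muscle myosin (mean 11.64 in low-control and 9.27 in high-control arrays), Pln, phospholamban of the calcium store (7.76 and 5.97), and Csrp1, a LIM protein of actin bundles (14.20 and 12.47). Tpm1, a tropomyosin of thin filaments, was 13.62 and 12.26, and Cald1, caldesmon, 12.90 and 11.96. The kinase gene Mylk (6.47 and 6.78) and Smtn, smoothelin (9.09 and 9.49), did not have this order.

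**Figure D4:**
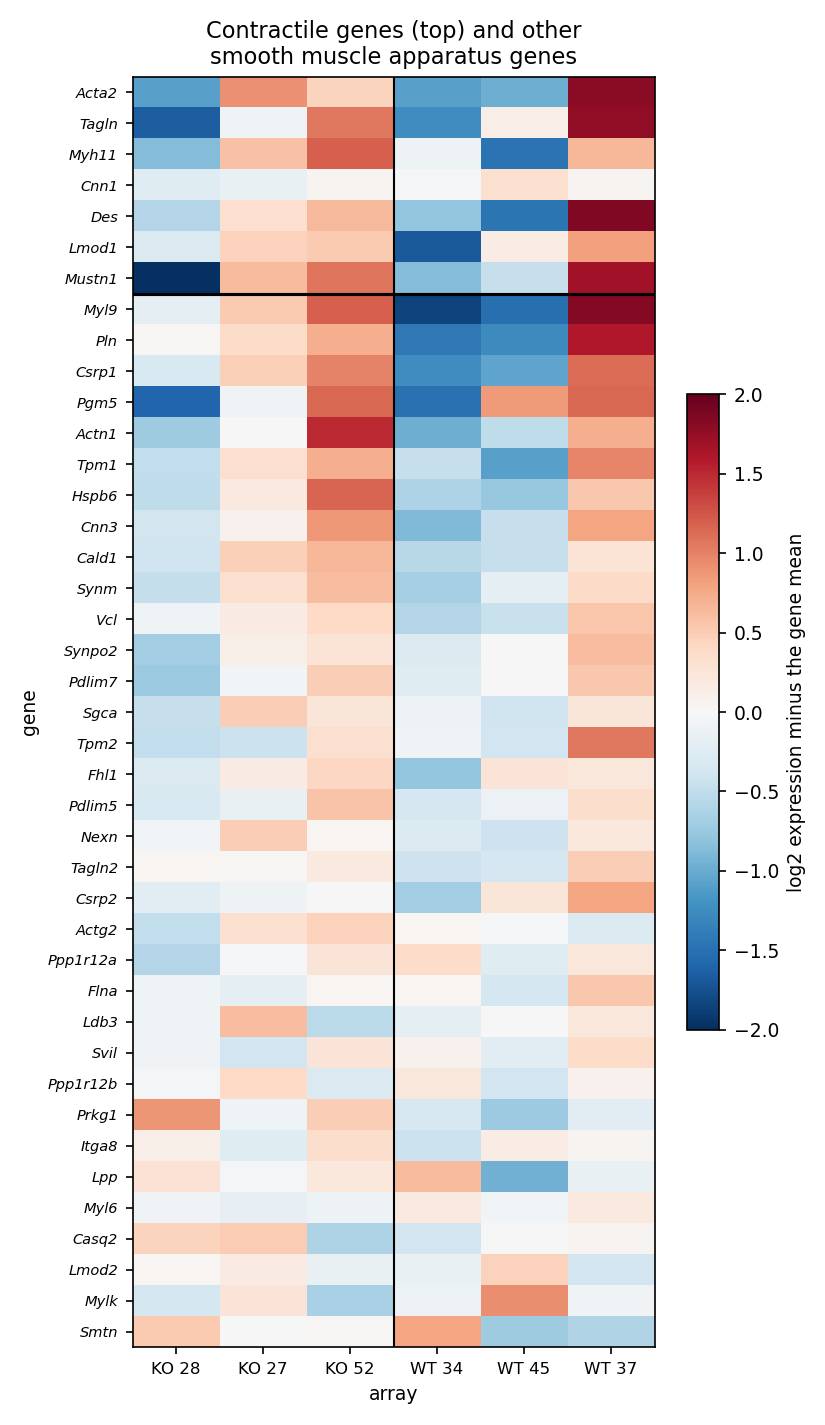
Log2 expression minus the mean of each gene (colour) for the 7 members (above the line) and the 34 other apparatus genes tested (below it, from the widest positive difference of low-control minus high-control arrays down), by array on the x axis with knockout left. Columns KO 27, KO 52 and WT 37 are mostly red and KO 28, WT 34 and WT 45 mostly blue in Acta2, Des and Mustn1 and in the upper genes such as Myl9 and Csrp1, and the rows from Prkg1 to Smtn overlap between these arrays.

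Of 17 tested regulators of smooth muscle genes 0 were called, 8 had a higher and 8 a lower mean in the knockout, and the median difference was 0.00. Rhoa, the GTPase upstream of actin assembly, was the regulator of highest signal (17.21 ± 0.06 in knockout and 17.29 ± 0.21 in wildtype arrays), followed by Tgfb1 (12.83 ± 0.43 and 12.67 ± 0.54). Srf was 6.50 ± 1.0 in knockout and 6.65 ± 0.53 in wildtype arrays, and its mean was 6.55 in low-control and 6.61 in high-control arrays. Of the 17 regulators 3 (Notch3, Rbpj and Rhoa) were higher in every low-control array, against 17.2% of all genes, and 1 was lower, against 7.35%. The lower one was Klf5, a Krüppel-like factor, at 6.15 in low-control and 8.05 in high-control arrays. Myocd, the gene of myocardin, was 3.92 ± 0.89 and 3.54 ± 0.24, at or below the background median in every array.

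Of 14 tested receptors and channels 0 were called, with a median difference of 0.25, 9 higher and 4 lower in the knockout. Over all genes the median difference was 0.03, and 54% were higher. Those of highest signal were Avpr1a, the vasopressin receptor of vascular smooth muscle (9.97 ± 0.37 in knockout and 8.65 ± 2.06 in wildtype arrays), Itpr1, the calcium channel of the endoplasmic reticulum (9.28 ± 0.36 and 8.90 ± 0.27), and Adra2a, an adrenergic receptor (9.02 ± 0.71 and 8.80 ± 0.58). Agtr1a, an angiotensin II receptor named here after its values were seen, was the 1 of 14 whose genotypes did not overlap, near the 6.25% of all genes, at 8.67 ± 0.22 in knockout and 7.46 ± 0.63 in wildtype arrays. Its limma p was 0.0111 before adjustment and 0.999 after it. Of the 14 receptors and channels 6 were higher in every low-control array and 0 lower, against 17.2% and 7.35% of all genes. Avpr1a (10.35 in low-control and 8.28 in high-control arrays) and Adra2a (9.42 and 8.40) were among the higher ones, and Itpr1 overlapped.

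Markers of other skin cells were read beside the members. Pericyte markers, cells of the capillary wall that share Acta2 and Des with smooth muscle, gave signal above background in every array for 13 of 16 genes, and their summed level was 18.78 to 19.28 in knockout and 16.98 to 19.13 in wildtype arrays. Rgs5, a pericyte regulator of G proteins, was 18.59 ± 0.08 in knockout and 17.77 ± 1.13 in wildtype arrays, Ebf1 16.23 ± 1.14 and 15.46 ± 1.34, and Pdgfrb, the receptor that recruits pericytes, 13.27 ± 0.30 and 12.15 ± 0.86. None of the 16 passed limma (0 called), and the unadjusted p was under 0.05 for 3, against 1.98% of all genes. The mean was higher in the knockout for 14, against 54% of all genes, and the median difference was 0.82, against 0.03 over all genes. In 8 of the 16 the low-control arrays lay above the high-control arrays, against 17.2% of all genes.

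Skeletal muscle of the skin, which shares Des and Mustn1, was read from 22 marker genes. Of these 15 were at or below the background median in every array, and Ckm, the muscle creatine kinase, was 4.39 ± 0.78 in knockout and 4.48 ± 0.39 in wildtype arrays. The genes of highest signal in this list were Myh3 (6.56 ± 0.60 and 6.71 ± 0.24), Mb, myoglobin (4.71 ± 0.42 and 4.55 ± 0.12), and Tnnc1 (4.65 ± 0.19 and 4.67 ± 1.17). The summed level of the list was 8.10 to 8.64 in knockout and 8.21 to 8.65 in wildtype arrays. Of its 14 tested genes 0 were higher and 2 lower in every low-control array, against 17.2% and 7.35% of all genes. The lower ones were Myh3 (6.29 in low-control and 6.97 in high-control arrays) and Myh2, which was below background. Oxtr, an oxytocin receptor of myoepithelium, was 3.18 ± 0.24 in knockout and 2.83 ± 0.20 in wildtype arrays, below background. The other genes of the myoepithelial list are Acta2 and Myh11 themselves and genes that keratinocytes share.

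Keratinocyte markers ran the other way over the arrays. All 8 keratinocyte genes on the array were lower in every low-control array than in every high-control array, where 7.35% of all genes were, and their median was 8.80, 8.72 and 8.57 in knockout 27, knockout 52 and wildtype 37 and 11.61, 15.18 and 11.83 in knockout 28, wildtype 34 and wildtype 45. The summed keratinocyte level was 12.78 to 16.49 in knockout and 12.46 to 18.98 in wildtype arrays. Krt15 was 11.24 ± 2.75 and 13.99 ± 4.40, Krt1 12.17 ± 2.60 and 13.52 ± 3.54, and Jup 13.02 ± 1.49 and 13.48 ± 2.24, with 0 of 8 called. The mean was lower in the knockout for all 8, where 54% of all genes were higher. The median keratinocyte difference was -1.4, against 0.03 over all genes. Of 13 fibroblast genes 6 were lower and 0 higher in every low-control array, with Dcn at 11.43 ± 2.77 in knockout and 11.89 ± 3.85 in wildtype arrays, Fbn1 at 11.26 ± 0.76 and 11.95 ± 0.57, and Col3a1 at 11.37 ± 0.25 and 12.08 ± 1.06. Fbn1 overlapped between the control sets, and its mean was higher in low-control (11.93) than in high-control arrays (11.28). Summed fibroblast level was 13.08 to 14.89 in knockout and 13.50 to 16.80 in wildtype arrays. The mean was higher in the knockout for 2 fibroblast genes and lower for 11, with a median difference of -0.46. The part of these cells, and of the cells that Acta2 shares with pericytes, in the levels of the contractile genes was not tested.

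In the other lists 0 genes were called, and their counts of genes higher or lower in every low-control array stand against 17.2% and 7.35% of all genes. In leukocyte markers 2 of 10 tested genes were higher and 3 lower in every low-control array, with summed levels of 11.11 to 11.48 in knockout and 10.57 to 12.18 in wildtype arrays. Their genes of highest signal were Cd68 (9.95 ± 0.70 and 9.5 ± 0.88), Lcp1 (9.70 ± 0.40 and 9.80 ± 0.58) and Lyz2 (7.84 ± 1.44 and 8.26 ± 2.17). The mean was higher in the knockout for 2 leukocyte genes and lower for 8, with a median difference of -0.46. Lymphatic markers had 1 of 9 higher (Fgl2) and 1 of 9 lower (Prox1). Their summed levels were 17.69 to 18.38 in knockout and 16.92 to 17.87 in wildtype arrays. Their leading genes were Fgl2 (difference 0.38), Ccl21 (1.87) and Thy1 (1.19), and Fgl2 weighs most in the summed level. Means of Prox1, Pdpn, Flt4, Ccl21, Reln and Sema3d were lower in low-control than in high-control arrays, and those of Lyve1, Thy1 and Fgl2 higher. Ccl21 was 13.37 in low-control and 15.65 in high-control arrays, Reln 7.09 and 8.67, and Fgl2 17.84 and 16.93. All but Fgl2 and Prox1 overlapped between these sets of arrays. Between genotypes the mean was higher in the knockout for 7 of the 9 lymphatic genes and lower for 2, with a median difference of 0.65. Of 3 tested Schwann cell genes Ngfr, S100b and Sox10, the neurotrophin receptor gene Ngfr was higher in every low-control array (8.03 against 6.05). Erythroid genes, led by Hba-a1, Hbb and Hba-a3 (differences 2.08, 1.68 and 2.06), had 0 of 6 higher and 1 of 6 lower in every low-control array. The mean was higher in the knockout for all 6 erythroid genes, with a median difference of 1.44. Of 17 blood endothelial genes 4 were higher and 1 lower, and Eng and Cdh5, which with Plvap had the highest signal, differed by 0.30 and 0.01 between genotypes. Cdh5 and Plvap lay near the highest value of every array, and whether this narrowed their differences was not tested. Over the 17 genes the mean was higher in the knockout for 14 and lower for 3, where 54% of all genes were higher. The median difference was 0.30, against 0.03 over all genes.

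The genes most like the members in their course over the 6 arrays were sought among 5033 genes with an SD of at least 0.5. The measure was Pearson's r with the mean of the centred members, which was -0.96, 0.38 and 0.71 in knockout 28, 27 and 52, against -0.83, -0.54 and 1.24 in wildtype 34, 45 and 37. Ogfod1, an oxygenase that hydroxylates a ribosomal protein, came first with r = 0.997 over 6 arrays, at 5.65, 6.48 and 6.79 in knockout animals, against 5.72, 5.90 and 6.98 in wildtype animals. Sec61a1, the channel of the endoplasmic reticulum, and Bok, of the Bcl-2 family, followed with 0.993 each, then Dnajc5 (0.992), Mall, Cpe and Agpat4 (0.989 each), and Tmem167b, Taf7 and Abhd14b (0.987 each). Of these 10 genes 0 are in any list used here. An r over 0.9 was reached by 441 genes, or 8.76%, so many genes shared this course.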

How the data were processed

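Per the labels' protocols, RNA of the sorted cells of each of 6 rats was biotin-labelled and hybridised to 1 array. Per the submitters' processing notes, the deposited log2 values come from RMA in Expression Console; version, library file and genome build were not given in the sources used here. That the scale is log2 rests on the RMA entry alone. The highest value per array was 19.70 to 19.93, which is high for log2 values from RMA, and the cause was not tested. RMA makes the distributions of arrays alike, so a value is relative to the other genes of its array. Probesets were named from the platform annotation: of 23188 that are no controls, 15049 have 1 symbol and 8139 are unnamed here, and the RefSeq table of GRCr8 held every one of those 15049 by Entrez identifier. For the 10 genes with several probesets the one of highest mean was used. The filter removed genes whose mean lay below 3.51, the 25th percentile of these probesets, and kept 11584, all 7 members among them.

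The genotypes were compared with lmFit and eBayes of limma 3.58.1, under R 4.3.3, on 6 arrays with genotype alone, two-sided, with Benjamini-Hochberg adjustment over all genes and a threshold of 0.05. Their number limits the precision (median SE 0.387). Correlations used exact permutation over the arrays (scipy 1.17.1). Arrays were called high-control or low-control by the midpoint of their control means. A summed level is the log2 of the sum of the unlogged values of a list's tested genes. The limma comparison of genotypes was tested on simulated arrays with known changes and independent noise, without the division by control signal. The members and lists were chosen with earlier results of these data known. All members are named, with Il33, the 3 genes of highest mean in each list, any gene called and the 10 genes most like the members; any other gene was named after its values were seen. The result of 1 regulator is not reported here. Alternatives were the filter, normalization, sex, females only, variance model, array weights, probeset handling, control signal as a block, thresholds and each array left out. Promoters are credited to RefSeq, build GRCr8.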

Additional observations from a re-analysis of the deposited data

Results flagged for a closer look

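For Des the difference between genotypes ran in opposite directions in the sexes, with every animal of each sex on its side. The male knockout lay below the male wildtype (13.19 against 14.38), while both female knockouts (11.95 and 12.87) lay above both female wildtypes (11.75 and 11.07). The difference of the male pair minus that of the females was -2.19 on the log2 scale. In limma with genotype, sex and their interaction it had an unadjusted p of 0.0309 and an adjusted p of 0.999, so it did not pass. The means of Acta2 and Lmod1 also ran in opposite directions, with interactions of -2.31 and -1.15, but their female values overlapped between genotypes. The males are 1 animal of each genotype, and both are low-control arrays. Of the females only knockout 27 (12.87) is a low-control array, so the female difference also crosses the control sets. Among the high-control arrays, all female, the Des difference was 0.54.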

How the results depend on the processing

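No contractile gene passed an adjusted p of 0.05 in limma under any alternative that gives a test. With control signal as a block, the direction reversed for Acta2 (-0.59) and Des (-0.41), and the difference moved to -1.19 for Tagln, -1.12 for Mustn1, 0.07 for Myh11 and 0.08 for Lmod1, with 2 of 7 at an unadjusted p under 0.05. Within low-control arrays, a comparison added after seeing the data, it reversed for Acta2 (-1.12), Des (-1.35) and Lmod1 (-0.32), and within high-control arrays for Acta2 (-0.05) and Myh11 (-0.07). Array weights reversed Mustn1 (0.26). The cause was not tested. On leaving out each array in turn the difference was -0.32 to 1.12 for Acta2, -1.17 to 0.33 for Tagln, 0.02 to 1.19 for Myh11, -0.31 to -0.13 for Cnn1, -0.40 to 1.26 for Des, -0.25 to 1.0 for Lmod1 and -0.84 to 0.72 for Mustn1. The filter at the 50th percentile removed Cnn1. The number of genes called, 1 (Il33), was 0 with no filter, with the stricter filter, in females only, for each probeset on its own and at a threshold of 0.01. It was 0 to 1 on leaving out each array, being lost without knockout 28, 27 or 52 or wildtype 45 or 37. The median r over the 15 pairs, 0.61, was 0.10 after the means of the control sets were taken out, 0.30 after those of the sexes and 0.50 to 0.76 on leaving out each array. The 10 genes most like the members shared 7 with those found without Cnn1. No paired analysis was possible because the animal numbers of the labels are not shared between genotypes.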
